A study of Rattus norvegicus with 12 samples.

Results

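The transcripts of 42 genes of DNA replication and mitosis were examined in rat liver 6 h after a glucocorticoid injection. The genes were taken by name. The array's gene names matched the symbols for 53 probes and older symbols of the same genes for 3, and 4 probes of 2 genes were found by the symbol in the probe's description, which gave 60 probes. Of these probes 52 were measured and represented 39 of the genes, among 24154 genes measured on the arrays in all. Mcm4, Kif11 and Nusap1, each with no probe well above background on more than 2 of the 12 arrays, were not measured.

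All animals were adrenalectomized Sprague-Dawley rats aged 8 to 10 weeks, so the controls too lacked their own adrenal hormones, and the females were in the first day of diestrus. Males and females were given either vehicle, which was phosphate-buffered saline, or dexamethasone, a synthetic glucocorticoid, at 1 mg/kg by intraperitoneal injection. Each of the 4 groups was represented by 3 single-colour arrays, and each array carried RNA pooled from 3 livers, 9 animals per group. The spread behind each p-value is therefore that between pools, not between animals. Whole liver was used, so fewer cells of a type and less RNA per cell cannot be told apart.

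Dividing cells license their replication origins by loading the ring-shaped MCM helicase with the loaders Cdc6 and Cdt1, and geminin restrains Cdt1 once S phase has begun. The helicase is activated with Cdc45 and the GINS complex, and at the fork the clamp PCNA, its loader RFC, primase, polymerases, the flap nuclease Fen1 and DNA ligase 1 copy the strands. Entry into mitosis is driven by Cdk1 with cyclins A and B, and the spindle checkpoint, the Aurora kinases and the anaphase-promoting complex then time the separation of chromosomes. Most hepatocytes of an adult liver are quiescent, and such genes are known for their surge during liver regeneration. Genes of S phase are typically controlled through E2F sites, and genes of mitosis through CHR elements and CCAAT boxes.

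Promoter sequences of 35 of the 42 genes were found in RefSeq's rat annotation on build GRCr8, and 4 are shown to set 2 mitosis genes, Cdk1 and Prc1, beside 2 replication genes, Mcm2 and Gins2. Each run holds the 250 bases before the start of transcription, 5′ to 3′ on the gene's own strand. Cdk1 lies at chr20:19265043-19265292 on the plus strand and Prc1 at chr1:143659231-143659480 on the plus strand. Mcm2 lies at chr4:122918095-122918344 and Gins2 at chr19:65548053-65548302, both on the minus strand. Capitals mark TTTGAA (CHR) and CCAAT, on either strand, in Cdk1 and Prc1, the E2F letters and TTTGAA in Mcm2, and CCAAT in Gins2, in which no E2F letters were found.
Cdk1: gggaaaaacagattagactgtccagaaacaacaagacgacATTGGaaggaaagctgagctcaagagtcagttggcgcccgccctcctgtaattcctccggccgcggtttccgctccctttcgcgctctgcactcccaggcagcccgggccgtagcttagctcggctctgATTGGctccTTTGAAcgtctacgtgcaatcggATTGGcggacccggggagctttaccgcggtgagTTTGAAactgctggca
Prc1: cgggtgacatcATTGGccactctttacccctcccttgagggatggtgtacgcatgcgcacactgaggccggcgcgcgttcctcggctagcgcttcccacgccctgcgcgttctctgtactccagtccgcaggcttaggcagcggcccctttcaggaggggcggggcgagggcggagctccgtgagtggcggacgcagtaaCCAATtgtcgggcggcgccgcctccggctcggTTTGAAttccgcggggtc
Mcm2: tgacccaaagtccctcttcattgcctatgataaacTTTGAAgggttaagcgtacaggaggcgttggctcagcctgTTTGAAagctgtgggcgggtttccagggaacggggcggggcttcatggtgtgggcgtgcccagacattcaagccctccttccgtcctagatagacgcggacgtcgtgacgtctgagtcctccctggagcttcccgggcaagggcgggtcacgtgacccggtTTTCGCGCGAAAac
Gins2: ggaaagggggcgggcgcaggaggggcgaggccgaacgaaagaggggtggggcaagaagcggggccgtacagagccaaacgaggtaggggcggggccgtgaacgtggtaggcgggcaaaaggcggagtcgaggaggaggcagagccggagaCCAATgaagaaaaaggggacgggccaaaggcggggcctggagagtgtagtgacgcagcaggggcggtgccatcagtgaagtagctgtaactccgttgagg

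The windows of the mitosis and the replication genes differed most in TTTGAA, and no difference between the 2 classes was tested. TTTGAA was found, on either strand, in 8 of 17 mitosis promoters and in 1 of 18 replication promoters, that of Mcm2, against 16.2% of 33469 rat promoters of the same length. CCAAT was found in 13 of 17 and 10 of 18, against 34% of all promoters. The E2F letters, which were TTTCCCGC, TTTGGCGC, TTTCGCGC or TTTGCCGC, were found in 2 of 17 and 6 of 18, against 1.73%. In Mcm2 a pair of matches on opposite strands overlapped, 14 and 10 bases before the start, and a single match, left in lower case, lay 133 bases before the start of Cdk1. The palindromic glucocorticoid receptor motif, AGAACA and TGTTCT with any 3 bases between, was in 0 of the 35 windows and in 0.012% of all promoters. These matches describe letters in the windows and not binding.

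The 12 arrays were spread over 5 slides, and only slide 5, which carried the third array of every group, held all 4 groups. Between 53% and 69.7% of spots per array stood well above background, and the 4 arrays of slide 5 were among the dimmer ones at 53% to 61.8%. Slide 1 held a vehicle and a dexamethasone array of males, whereas both other arrays of dexamethasone-treated females lay alone on slide 4. A model with a fixed term for each slide therefore takes its values for dexamethasone-treated females from female dexamethasone 3 only. All 10 hepatocyte markers were measured, at mean levels of 8.00 to 8.91 per array. Levels below are log2 intensities relative to the 75th percentile of the same array, so a level of 0 lies at that percentile, and levels of different genes are not compared.

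On slide 5 the mitosis genes were low in 3 of the 4 groups. In males after vehicle, 18 of 19 measured mitosis genes were lower on slide 5 than on the mean of the group's other arrays, with a median difference of -1.05. In males after dexamethasone all 19 were lower, with a median of -1.62, and in females after vehicle 18 were lower, with a median of -0.78. In females after dexamethasone 15 of 19 were lower, but the median was -0.21. The 20 replication and nucleotide supply genes shifted less, by medians of -0.46, -0.67, -0.67 and -0.01 in the same order of groups. Over all measured genes these medians lay between -0.03 and 0.09. The part of the slide, its scan and the animals pooled on it in these shifts was not tested, and results that change with slide 5 are given with and without it.

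**Figure D1:**
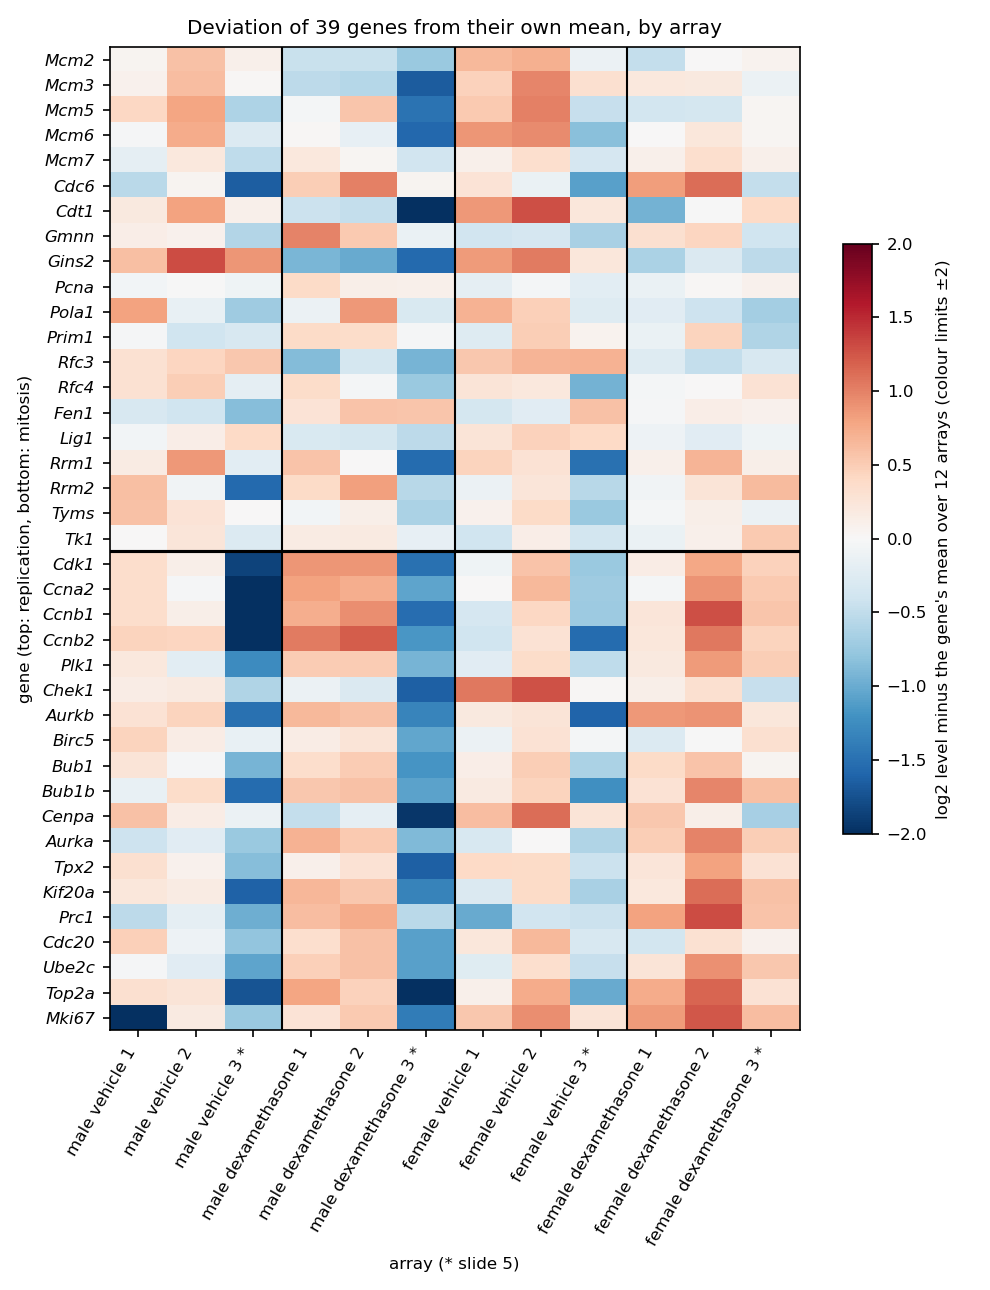
Colour gives the log2 level of each of 39 genes on each array minus the gene's own mean over the 12 arrays, with replication genes above the thick line, mitosis genes under it and asterisks on slide 5. The mitosis genes of the slide 5 arrays of both male groups are mostly blue, with group medians of -1.05 and -1.62 against the other arrays, while those of females after dexamethasone are mostly red.

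In males dexamethasone changed 5 of the 39 genes and in females 4, and 8 of these 9 calls were of replication genes. Of the 20 replication genes 1 rose and 4 fell in males and 0 rose and 3 fell in females. Of all measured genes 20.2% and 24.4% were called, and no difference between replication and mitosis genes was tested. Gins2, Rfc3 and Lig1 fell in both sexes. Mcm3 fell and Fen1 rose in males, and Prc1 was the one mitosis gene called, higher in females, but its signal was well above background on 3 arrays in all, each after dexamethasone, so it entered the test through the arrays where it was high. A gene was called at an adjusted p under 0.05 in a linear model over all genes (limma). The 5 of 39 in males are 12.8%, against 20.2% of all measured genes, and the 4 of 39 in females are 10.3%, against 24.4%, so both shares lay under those of the array as a whole. By direction, 1 of 39 was higher and 4 lower in males, against 9.36% and 10.8% of all genes, and 1 was higher and 3 lower in females, against 11.7% and 12.7%. The median difference over the 39 genes was 0.13 in males and 0.33 in females, against 0.01 and -0.08 over all genes. The male median was not stable in sign: it was -0.15 within slide 5, -0.22 without male vehicle 3 and 0.60 without male dexamethasone 3. The female median was 0.74 with slide as a fixed block, 0.06 without slide 5 and 0.08 with a model-based background correction.

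**Figure D2:**
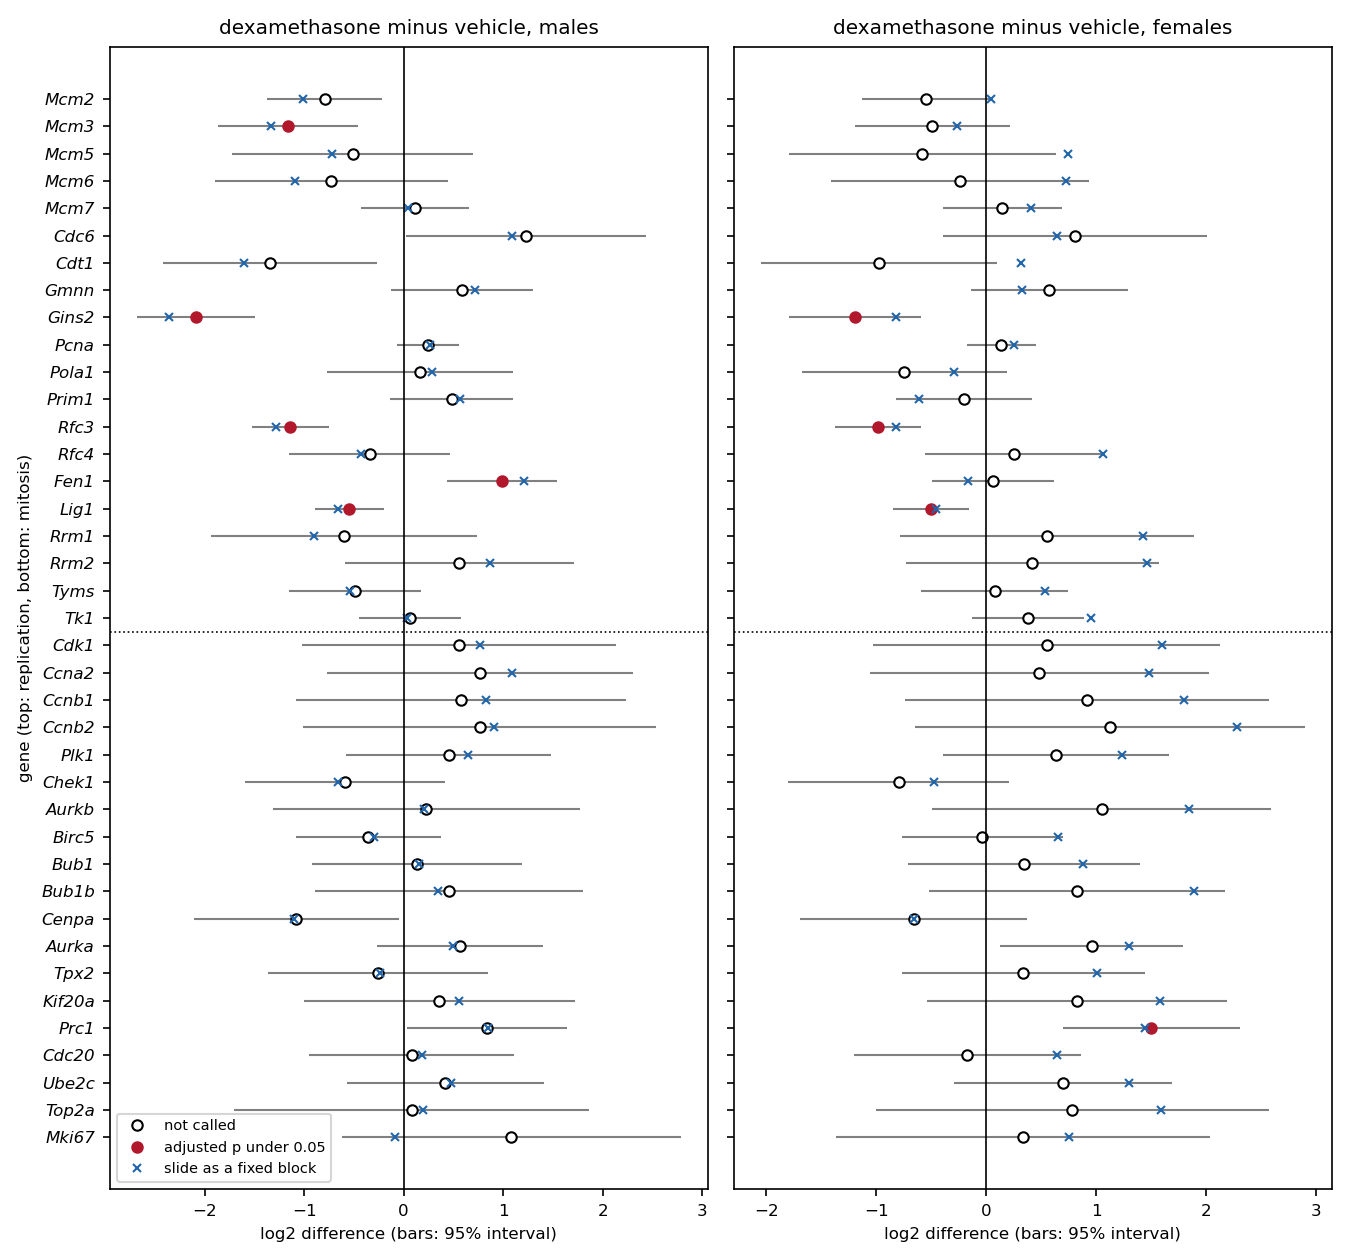
Points give the log2 difference of dexamethasone minus vehicle for each of 39 genes in males and in females with 95% intervals from limma, filled where the adjusted p was under 0.05, and crosses give the same difference with slide in the model. Most intervals of the mitosis genes span 0, and the crosses of the mitosis genes in females lie mostly to the right of the points. The points of Gins2 and Prc1 in males and of Mcm5, Cdc6 and Prc1 in females are differences of measured means in which a group was not well above background on any array.

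Among the genes that license and start origins, Gins2 fell in both sexes. Gins2 encodes a subunit of the GINS complex, which activates the replicative helicase. Its probe, shown because the smallest adjusted p among the measured members rests on it, is
Gins2 probe: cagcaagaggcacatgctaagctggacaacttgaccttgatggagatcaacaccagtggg
Levels of Gins2 in males were -2.97, -2.27 and -2.70 after vehicle and -4.49, -4.59 and -5.13 after dexamethasone. No dexamethasone array of males was well above background, so only a bound can be given: Gins2 was at least 2.92-fold lower (adjusted p = 0.000424, limma; mean levels of -2.65 and -4.73). In females the levels were -2.72, -2.53 and -3.35 after vehicle and -4.21, -3.87 and -4.10 after dexamethasone. Gins2 there fell by 1.19 ± 0.27 (SE) on the log2 scale, 2.29-fold (adjusted p = 0.0094, limma), with 2 vehicle arrays and 1 dexamethasone array well above background. In each sex all 3 dexamethasone arrays lay under all 3 vehicle arrays, as was true of 18.5% of all genes in males and 23% in females. A model with slide as a block gave -0.83 in females (adjusted p = 0.0682, limma), and slide 5 by itself gave -0.75. The model-based background correction gave -0.48 in females (adjusted p = 0.0251, limma). The male call was lost when that correction replaced the scanner's own (-0.39, adjusted p = 0.0749, limma).

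None of the other licensing genes was called. Levels of Cdt1, the loader that brings MCM rings to origins, were -3.39, -2.79 and -3.48 in males after vehicle and -4.02, -4.07 and -5.61 after dexamethasone. The groups did not overlap, yet the difference of -1.34 ± 0.48 missed the threshold (adjusted p = 0.0789, limma). In females Cdt1 differed by -0.98 ± 0.48 (adjusted p = 0.169, limma). Cdc6, the other loader, was well above background on 1 of 3 vehicle and 2 of 3 dexamethasone arrays of males and on 0 and 2 of females. Its levels were -4.91, -4.31 and -6.01 in males after vehicle and -3.87, -3.36 and -4.31 after dexamethasone, and -4.09, -4.50 and -5.46 and then -3.53, -3.25 and -4.85 in females (adjusted p = 0.148 and 0.308, limma). No fold is given for this dim probe. Geminin, Gmnn, which inhibits Cdt1, differed by 0.58 ± 0.32 and 0.57 ± 0.32 (adjusted p = 0.256 and 0.222, limma). With slide as a block the model called Cdc6 (adjusted p = 0.044) and Gmnn (0.72, adjusted p = 0.0204) higher and Cdt1 lower (-1.61, adjusted p = 0.0227) in males, by limma.

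Of the 5 measured helicase subunits, 1 was called in males and 0 in females, against 20.2% and 24.4% of all genes. Mcm3, a subunit of the MCM ring, was read by 2 probes, which are shown because they differ in what they call.
Mcm3 probe with the brighter signal: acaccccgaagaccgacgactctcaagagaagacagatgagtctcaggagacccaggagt
Mcm3 second probe: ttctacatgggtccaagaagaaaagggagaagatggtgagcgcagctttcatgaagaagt
Levels of Mcm3 by the brighter probe were -0.93, -0.40 and -0.99 in males after vehicle and -1.53, -1.59 and -2.68 after dexamethasone, and the groups did not overlap. Mcm3 fell by 1.16 ± 0.32 on the log2 scale, 2.24-fold (adjusted p = 0.0261, limma). Leaving out male vehicle 2 or male dexamethasone 3 ended the call (adjusted p = 0.0925 and 0.0677, limma). In females Mcm3 stood at -0.55, -0.04 and -0.69 after vehicle and -0.81, -0.82 and -1.13 after dexamethasone, a difference of -0.49 ± 0.32 that was not called (adjusted p = 0.288, limma). The second probe of Mcm3 gave -1.60 ± 0.28 in males (adjusted p = 0.00297, limma) and -0.42 ± 0.28 in females (adjusted p = 0.309), with none of the dexamethasone arrays of males well above background.

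Mcm2, another subunit of the ring, came close to the threshold in males. Its levels there were -1.25, -0.72 and -1.20 after vehicle and -1.75, -1.75 and -2.05 after dexamethasone, without overlap (-0.79 ± 0.26, adjusted p = 0.0564, limma). With slide as a block Mcm2 was called lower in males (-1.01, adjusted p = 0.0164, limma). In females the levels of Mcm2 were -0.65, -0.59 and -1.42 after vehicle and -1.78, -1.29 and -1.24 after dexamethasone, and the groups overlapped through slide 5. The female difference of -0.55 ± 0.26 (adjusted p = 0.151, limma) became 0.05 in the model with slide, 0.18 on slide 5 by itself, and -0.92 (adjusted p = 0.036) without slide 5. Mcm5, Mcm6 and Mcm7 differed by -0.51, -0.73 and 0.11 in males, and Mcm6 and Mcm7 by -0.24 and 0.14 in females, and none was called. In females Mcm5 was well above background on 0 of 3 dexamethasone arrays and 2 of 3 vehicle arrays, and it was not called either (adjusted p = 0.472, limma).

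At the replication fork Rfc3 and Lig1 fell in both sexes. Rfc3 encodes a subunit of replication factor C, which loads the PCNA clamp, and its probe and that of Lig1 are shown because both genes were called in males and in females.
Rfc3 probe: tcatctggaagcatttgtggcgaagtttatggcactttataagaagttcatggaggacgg
Lig1 probe: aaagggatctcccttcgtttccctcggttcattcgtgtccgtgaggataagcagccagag
Levels of Rfc3 in males were 1.61, 1.74 and 1.83 after vehicle and 0.43, 0.95 and 0.38 after dexamethasone. In females they were 1.84, 1.98 and 2.0 after vehicle and 1.05, 0.82 and 0.99 after dexamethasone. The dexamethasone arrays lay under the vehicle arrays in each sex, and all 12 were well above background. Rfc3 fell by 1.14 ± 0.18 on the log2 scale in males, 2.20-fold (adjusted p = 0.00132, limma), and by 0.99 ± 0.18 in females, 1.99-fold (adjusted p = 0.00277). Both calls held without each of the 12 arrays in turn, with adjusted p of at most 0.00713 in males and 0.0159 in females. The model with slide gave -0.82 in females (adjusted p = 0.095, limma).

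Lig1 encodes DNA ligase 1, which joins Okazaki fragments. Its levels in males were 1.81, 1.99 and 2.27 after vehicle and 1.56, 1.52 and 1.35 after dexamethasone. In females they were 2.12, 2.32 and 2.26 after vehicle and 1.76, 1.64 and 1.78 after dexamethasone. The groups did not overlap in either sex. Lig1 fell by 0.55 ± 0.16 on the log2 scale in males and by 0.51 ± 0.16 in females, 1.46-fold and 1.42-fold (adjusted p = 0.0316 and 0.0383, limma). These calls were narrow. The male one was lost without any 1 of male vehicle 2, male vehicle 3 or the 3 male dexamethasone arrays (adjusted p up to 0.112), and the female one without any 1 of the 6 female arrays, male vehicle 2 or male dexamethasone 2 (up to 0.126). Scaling to the median of each array in place of the 75th percentile also ended both (adjusted p = 0.104 in males and 0.28 in females, limma).

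Fen1, the nuclease that trims the flaps of Okazaki fragments, rose in males by its brighter probe only. Levels of that probe were 2.91, 2.83 and 2.37 in males after vehicle and 3.50, 3.80 and 3.78 after dexamethasone, without overlap, as in 16.7% of all genes in that direction (0.99 ± 0.25, 1.99-fold, adjusted p = 0.0182, limma). In females they were 2.87, 3.01 and 3.82 after vehicle and 3.21, 3.36 and 3.31 after dexamethasone (0.06 ± 0.25, adjusted p = 0.883, limma). Female vehicle 3, on slide 5, lay above every other female array. Leaving out male vehicle 3, male dexamethasone 2 or male dexamethasone 3 ended the call of Fen1 (adjusted p = 0.0697, 0.0597 and 0.0578, limma). The second probe reads
Fen1 second probe: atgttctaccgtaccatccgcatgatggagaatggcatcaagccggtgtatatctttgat
and it gave 0.42 ± 0.27 in males and 0.77 ± 0.27 in females, neither called (adjusted p = 0.338 and 0.0603, limma), so the probes of Fen1 disagree on the sex with the larger difference.

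The remaining fork genes were not called. Pcna, the sliding clamp that tethers the polymerases, stood at 0.98, 1.03 and 0.94 in males after vehicle and 1.42, 1.15 and 1.13 after dexamethasone, which did not overlap but differed by only 0.25 ± 0.14 (adjusted p = 0.27, limma). In females Pcna was at 0.85, 0.99 and 0.83 after vehicle and 0.91, 1.06 and 1.11 after dexamethasone (0.14 ± 0.14, adjusted p = 0.517, limma). A dimmer second probe of Pcna gave 0.20 ± 0.26 in males and 0.60 ± 0.26 in females, neither called (adjusted p = 0.667 and 0.119, limma). The clamp loader subunit Rfc4 differed by -0.34 in males and 0.25 in females, and primase, Prim1, by 0.48 and -0.20. Pola1, the catalytic subunit of the polymerase that extends primers, was read by 2 probes of opposite sign in males (0.17 and -0.96). Of the 4 nucleotide supply genes none was called: the ribonucleotide reductase subunits Rrm1 and Rrm2, thymidylate synthase, Tyms, and thymidine kinase, Tk1, lay between -0.60 and 0.56 in males and between 0.08 and 0.55 in females. A second, more variable probe of Rrm2 gave 1.66 ± 1.25 and 2.67 ± 1.25 (adjusted p = 0.42 and 0.147, limma).

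**Figure D3:**
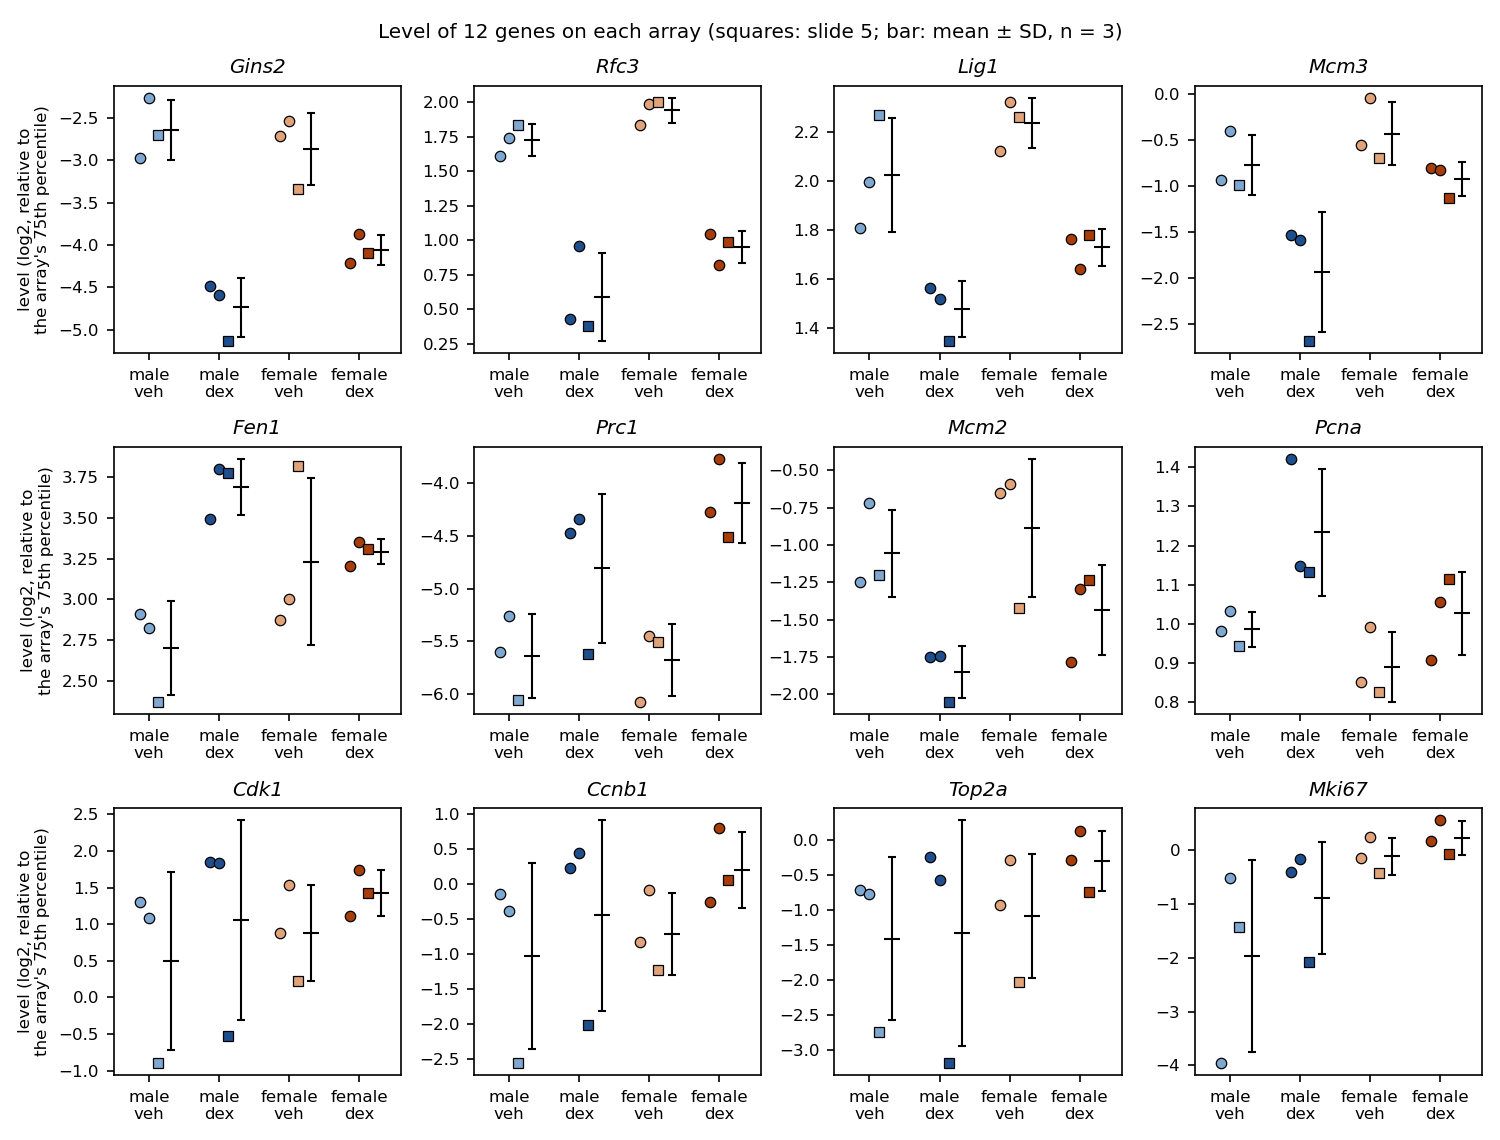
Each panel gives the log2 level of a gene on each array relative to the array's 75th percentile, with squares for slide 5 and bars for the mean ± SD of 3 arrays. In Gins2, Rfc3 and Lig1 the dexamethasone arrays lie under the vehicle arrays in both sexes, and in Cdk1, Ccnb1 and Top2a the slide 5 arrays of both male groups and of vehicle-treated females lie lowest in their groups. In females after dexamethasone slide 5 lies lowest for Top2a but not for Cdk1 or Ccnb1.

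Of the 19 measured mitosis genes 0 were called in males and 1 in females, against 20.2% and 24.4% of all genes. In each sex 15 of 19 differences were positive. The median difference was 0.42 in males and 0.64 in females. Slide 5 by itself gave other medians, whereas leaving it out hardly moved the male median and lowered the female one. Within slide 5 the median was -0.04 in males, with 9 of 19 positive, and 1.00 in females, with 17 of 19 positive. Within slide 1 it was 0.50 in males, with 17 of 19 positive. Without the 4 arrays of slide 5 the medians were 0.44 in males and 0.33 in females, with 15 of 19 positive in each sex.

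Prc1 was the mitosis gene called. It encodes a microtubule bundling protein of the central spindle and its probe is shown because the female call rests on it.
Prc1 probe: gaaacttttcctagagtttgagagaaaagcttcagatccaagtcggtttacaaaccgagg
Levels of Prc1 in females were -6.08, -5.46 and -5.51 after vehicle and -4.27, -3.77 and -4.51 after dexamethasone, and the groups did not overlap, as for 20.1% of all genes in that direction. No vehicle array of females was well above background and 2 of 3 dexamethasone arrays were, and at the dimmest detectable signal no fold could be given (adjusted p = 0.0136, limma). In males Prc1 was at -5.60, -5.26 and -6.06 after vehicle and -4.47, -4.33 and -5.62 after dexamethasone, with 0 and 1 arrays well above background (adjusted p = 0.142, limma). Leaving out female vehicle 1 or female dexamethasone 2 ended the female call (adjusted p = 0.0531 and 0.0595, limma), as did slide as a block (0.136) and the model-based background correction (0.73).

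Genes of mitotic entry, 6 in number, were not called in either sex. Cdk1, the kinase that starts mitosis, stood at 1.31, 1.08 and -0.89 in males after vehicle and at 1.85, 1.84 and -0.52 after dexamethasone. In females Cdk1 was at 0.88, 1.53 and 0.23 after vehicle and 1.12, 1.73 and 1.43 after dexamethasone. The third value of each group is slide 5, which was lowest in 3 groups, and the groups overlapped. Differences of Cdk1 were 0.56 ± 0.71 in males and 0.55 ± 0.71 in females (adjusted p = 0.673 and 0.615, limma). Cyclin B1, Ccnb1, its partner, stood at -0.15, -0.38 and -2.55 in males after vehicle and 0.23, 0.44 and -2.01 after dexamethasone, and at -0.82, -0.08 and -1.23 and at -0.25, 0.80 and 0.06 in females. Its differences were 0.58 ± 0.75 and 0.91 ± 0.75 (adjusted p = 0.676 and 0.404, limma). Ccna2, Ccnb2 and the mitotic kinase Plk1 differed by 0.77, 0.76 and 0.45 in males and by 0.48, 1.12 and 0.64 in females. The checkpoint kinase Chek1, which holds cells with unreplicated DNA back from mitosis, was the negative one of this group (-0.59 and -0.79). 

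Spindle and kinetochore genes were likewise not called apart from Prc1. Aurora A, Aurka, which builds spindle poles, was at -1.51, -1.17 and -1.78 in females after vehicle and -0.70, -0.19 and -0.70 after dexamethasone, without overlap (0.96 ± 0.38, adjusted p = 0.0908, limma). In males it differed by 0.57 ± 0.38 (adjusted p = 0.353, limma). Aurora B, Aurkb, the kinase of the chromosome passenger complex, differed by 0.23 ± 0.70 and 1.05 ± 0.70 (adjusted p = 0.875 and 0.299, limma). Its partner survivin, Birc5, differed by -0.35 and -0.04. The checkpoint kinase Bub1 differed by 0.13 and 0.34 and its relative Bub1b by 0.45 and 0.83. Cenpa, the centromeric histone, pointed downward in both sexes (-1.08 ± 0.47 and -0.66 ± 0.47, adjusted p = 0.139 and 0.329, limma). The spindle assembly factor Tpx2 (-0.26 and 0.33), the cytokinesis kinesin Kif20a (0.36 and 0.82), the anaphase activator Cdc20 (0.08 and -0.17) and the ubiquitin-conjugating enzyme Ube2c (0.42 and 0.69) are given as differences in males and females.

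The markers by which dividing cells are often counted were not called by their brighter probes. Mki67, the Ki-67 antigen, stood at -3.96, -0.51 and -1.43 in males after vehicle and -0.41, -0.17 and -2.08 after dexamethasone, and at -0.14, 0.25 and -0.43 and at 0.17, 0.57 and -0.06 in females. Its differences were 1.08 ± 0.77 and 0.33 ± 0.77 (adjusted p = 0.394 and 0.786, limma). Male vehicle 1 was the lowest of all 12 arrays for this probe, whereas the second Mki67 probe read -2.69 there, beside -2.63 and -5.39 on the other arrays of the group. Top2a, the topoisomerase that untangles sister chromosomes, differed by 0.08 ± 0.81 in males and 0.78 ± 0.81 in females (adjusted p = 0.965 and 0.514, limma). Its levels were -0.71, -0.77 and -2.75 in males after vehicle and -0.24, -0.56 and -3.19 after dexamethasone. In females they were -0.92, -0.29 and -2.04 after vehicle and -0.29, 0.13 and -0.74 after dexamethasone. A dimmer second probe of Top2a rose in females, from -3.57, -3.24 and -3.66 to -2.50, -2.01 and -2.46 (1.16 ± 0.34, adjusted p = 0.0314, limma), and differed by 0.28 ± 0.34 in males (adjusted p = 0.65).

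With slide in the model the calls changed, and in females none of the genes called was among those called without slide. In males 10 of 39 were called (25.6%, against 25.7% of all genes): Cdc6, Fen1 and Gmnn higher, and Cdt1, Gins2, Lig1, Mcm2, Mcm3, Mcm6 and Rfc3 lower. In females 4 were called (10.3%, against 12.7% of all genes), all higher: Aurkb (1.84), Bub1b (1.89), Ccnb2 (2.28) and Rfc4 (1.06). In females slide 5 is the one slide that held both treatments. The female values of this model therefore rest on a single treated array, female dexamethasone 3. As a random block, slide gave 10 calls in males and 5 in females, against 31.9% and 24.9% of all genes. Without the 4 arrays of slide 5 the model called 11 in females, against 29.8% of all genes: Aurka, Aurkb, Gmnn and Prc1 higher, and Cdt1, Chek1, Gins2, Lig1, Mcm2, Mcm5 and Rfc3 lower. In males it then called Aurka and Fen1 higher and Gins2 and Rfc3 lower, against 16.7% of all genes. Gins2 and Rfc3 were lower in both sexes without slide 5.

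The study asked how the sexes differ in their response, and for these genes no difference in response was called. Of 39 genes 0 were called for the female minus the male effect, against 0.029% of all genes, and 2 had an unadjusted p under 0.05. These were Fen1 (-0.93 ± 0.35, adjusted p = 0.442, limma), whose second probe gave 0.36, and Gins2 (0.89 ± 0.38, adjusted p = 0.483, limma), whose value includes the male dexamethasone arrays that were not well above background. The median of this difference over the 19 mitosis genes was 0.34, 0.96 within slide 5 with all 19 positive, and -0.06 without slide 5. With 3 arrays a group the intervals were wide: that of Cdk1 reached from -1.03 to 2.13 for the female effect alone. The female minus male difference of Cdk1 was less precise still, at -0.01 ± 1.01.

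Between the sexes after the same treatment no member was called either. After vehicle 0 of 39 were called, against 1.71% of all genes, and 1, Mki67, had an unadjusted p under 0.05 (1.86 ± 0.77, adjusted p = 0.432, limma), a difference that holds the low male vehicle 1 array. After dexamethasone 0 of 39 were called, against 2.31% of all genes, and 2 had an unadjusted p under 0.05. They were Mcm3 (1.01 ± 0.32, adjusted p = 0.151, limma), higher in females without overlap, as were 10.8% of all genes, and Gins2 (adjusted p = 0.255, limma), which after dexamethasone was well above background on 0 of 3 male and 1 of 3 female arrays. In the model with slide 2 were called there, Aurkb and Mcm6, against 1.75% of all genes, and with slide as a random block 1, Mcm3, against 3.79%. The fixed slide term leaves a single array of dexamethasone-treated females behind the values of Aurkb and Mcm6. Without slide 5 Aurkb differed by 0.27 and Mcm6 by 0.19 (adjusted p = 0.332 and 0.742, limma). The second probe of Mcm3 was called between the sexes after dexamethasone (1.47 ± 0.28, adjusted p = 0.0252, limma). That value is a difference of measured means, since this probe was well above background on 0 of 3 male dexamethasone arrays. All 19 mitosis genes had a higher mean in females than in males after dexamethasone, with a median difference of 0.61, but without slide 5 the median was 0.07 with 13 of 19 positive. Within slide 5 it was 1.58.

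**Figure D4:**
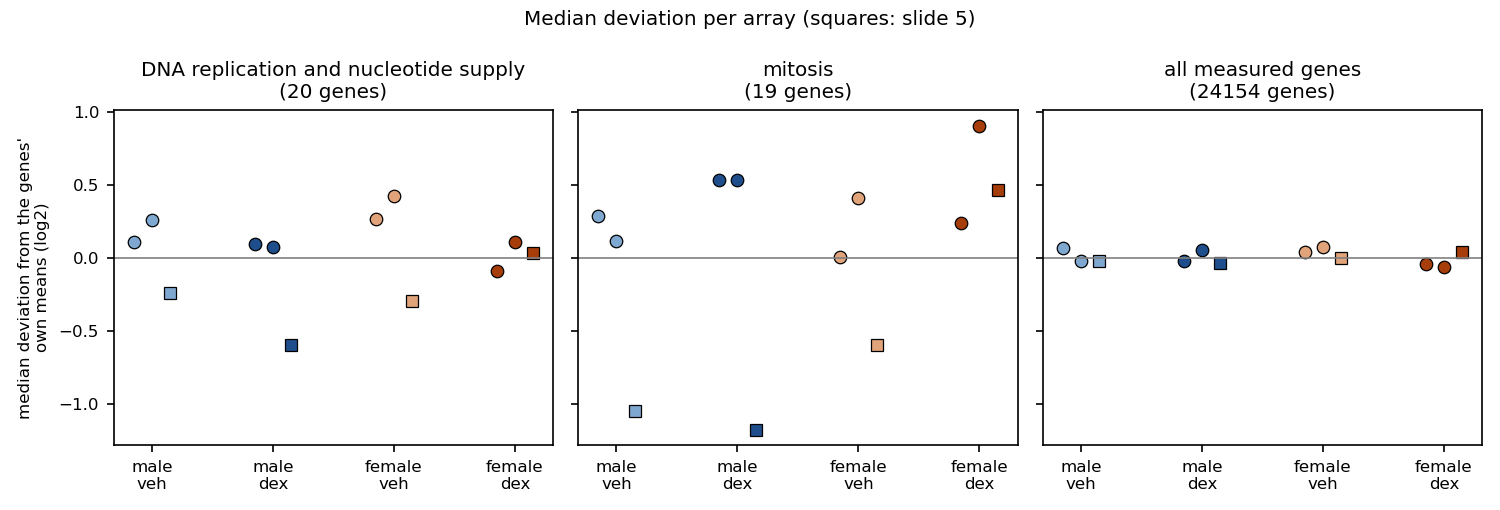
Points give, per array, the median deviation from the genes' own means over 12 arrays for 20 replication genes, 19 mitosis genes and all 24154 measured genes, with squares for slide 5. The mitosis medians of slide 5 lie lowest in 3 groups, at -1.05, -1.17 and -0.60, and at 0.46 in females after dexamethasone, while those of all genes stay between -0.06 and 0.08.

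Other genes of the same pathways, from lists that do not overlap with the 39 genes, showed calls in both directions. Of 40 other replication and S phase genes, 1 rose and 7 fell in males and 6 rose and 8 fell in females, with medians of -0.35 and -0.21. These are 20% of the list in males and 35% in females, against 20.2% and 24.4% of all genes. Rfc1, the large clamp loader subunit, fell by 1.17 and 0.97 on the log2 scale in males and females, and Pold3, a subunit of polymerase delta, by 1.13 and 0.87. Timeless, a fork protection factor, fell by 1.42 and 1.12, and Ung, the uracil DNA glycosylase, by 1.13 and 0.95. Mcm10, which helps to activate the helicase, was at least 1.60-fold higher in males and at least 1.32-fold higher in females (adjusted p = 0.0205 and 0.00339, limma). No vehicle array of either sex was well above background for Mcm10, so it entered the test through the dexamethasone arrays where it was high. In females the origin recognition genes Orc1, at least 1.86-fold, and Orc5 (1.30 ± 0.27, adjusted p = 0.00623, limma) rose. For Orc1 no vehicle array of females was well above background.

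Of 48 other mitosis genes, 2 rose and 4 fell in males and 2 rose and 2 fell in females, with medians of 0.08 and 0.22. These are 12.5% and 8.33% of the list, under the 20.2% and 24.4% of all genes. Melk, a kinase of dividing cells, rose by 4.14 ± 0.43 in males and 3.72 ± 0.43 in females (adjusted p = 0.000122 and 0.000221, limma). Cks2, a small partner of Cdk1, fell by 1.15 and 1.18, and the condensin subunit Ncapg2 by 1.28 and 0.74. Cdca8, a chromosome passenger, and the centromere gene Cenpm fell in males by 0.86 and 0.79. Hmmr rose in males (0.69 ± 0.19, adjusted p = 0.0247) and the checkpoint protein Bub3 in females (0.60 ± 0.15, adjusted p = 0.015, limma).

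Of 29 regulators of the G1/S step, 4 rose and 4 fell in males and 2 rose and 6 fell in females, 27.6% of the list in each sex against 20.2% and 24.4% of all genes. Ccnd2, a D-type cyclin, fell by 1.84 and 2.18, E2f1, the S phase transcription factor, rose in males (1.02 ± 0.25, adjusted p = 0.0165, limma), and Cdk2, the kinase partner of cyclin E, fell in females (-1.0 ± 0.26, adjusted p = 0.0183, limma). Ccnd1 and Ccne1, cyclins D1 and E1, moved oppositely in both sexes, by -3.20 and 4.67 in males and -4.16 and 3.71 in females, and the kinase inhibitor Cdkn1a rose by 5.02 and 5.19. Of 20 DNA damage and p53 target genes, 6 rose and 4 fell in males and 5 rose and 3 fell in females, 50% and 40% of the list. Gadd45b (4.39 and 3.53) and Plk3 (3.32 and 3.06), stress-induced growth arrest genes, and Ccng1, cyclin G1 (1.95 and 1.87), rose in males and females, while the death receptor gene Fas (-2.78 and -2.52) and the apoptosis gene Bbc3 (-1.83 and -2.70) fell.

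Markers of other cell types in the liver were mostly lower where they were called. Of all genes 9.36% were called higher and 10.8% lower in males, and 11.7% and 12.7% in females, so several of the short lists lie near these shares. Single genes were lower without overlap in 18.5% of cases in males and 23% in females. Of 11 measured T and NK lymphocyte markers, 1 rose and 6 fell in males and 9 fell in females, and their mean level ranged from -1.97 to -1.51 in males after vehicle and from -2.73 to -2.53 after dexamethasone. In females these ranges were -1.70 to -1.28 and -2.90 to -2.56. Of 4 B and plasma cell markers 2 and 3 fell, and of 3 neutrophil markers 2 fell in each sex, and the mean levels of these 3 lists and of the bile duct list were lower on every dexamethasone array than on any vehicle array of the same sex. Of 13 Kupffer cell and macrophage markers 2 fell in each sex, and of 8 erythroid markers 1 fell in males and 2 in females. Of 10 endothelial markers 1 rose in each sex and 1 fell in females, of 8 stellate cell markers 2 and 3 fell, and of 8 bile duct markers 1 and 3 fell. Markers well above background on at most 6 arrays were Cd5 and Cd8a of T cells, Jchain of plasma cells, Klf1 and Hemgn of erythroid cells, Pecam1 and Tek of endothelium and Cftr of bile ducts. The part of these cells in the levels of the 39 genes was not tested.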

How the data were processed

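RNA from rat liver was hybridised to 12 single-colour Agilent arrays, which were scanned and read with Agilent Feature Extraction 9.1, per the submitters' processing notes. The deposited scanner files hold spot intensities that Feature Extraction had already background-corrected, per the file headers. The authors' deposited value table holds log10 values (array medians of 1.49 to 1.52), whose scaling is not given in the sources used here. It served as an alternative.

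The log2 intensity minus each array's 75th percentile was computed from the deposited values, without control spots and with outlier spots as missing, which left 115 missing values. A gene was represented by its brightest probe well above background on at least 3 arrays, with at least 2 usable arrays per group. Groups came from the sample labels. The 4 group means were fitted over 24154 genes with limma 3.58.1 in R 4.3.3 (8 residual degrees of freedom) for 5 comparisons with Benjamini-Hochberg adjustment, and a gene was called at an adjusted p under 0.05. Where a group was not well above background on any array, a fold is given as a bound against the dimmest detected signal. The fit was tested on simulated arrays with independent noise and no slide effect, and only for the male comparison. That test therefore cannot show how slide affects the fit. Members and gene lists were chosen with earlier results of these data known. Members called in any comparison are given array by array, with Mki67, Top2a, Pcna, Cdk1, Mcm2 and Ccnb1 whatever their result. From each pathway list up to 4 called genes per direction and sex were eligible to be named. Cdt1, Aurka and the genes called under other models were added after their values were seen.

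Alternatives were other scalings, background corrections and filters, slide as a block, the replicate number as a block, single arrays left out, and, chosen after seeing the data, slide 5 left out and each probe by itself. Promoter letters are RefSeq's on GRCr8. Probes were not placed on a genome here. The number of arrays limits the precision.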

Additional observations from a re-analysis of the deposited data

How the results depend on the processing

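Rfc3 in males kept its direction under every alternative run and its call under each that gave a test. The number of the 39 genes called in males was 5, and it was 10 with slide as a fixed block, 10 with slide as a random block, 10 with the replicate block and 3 when only the 6 male arrays were fitted, while the share of all genes called went from 20.2% to 25.7%, 31.9%, 26.1% and 13.6%. Leaving out single arrays gave 3 to 6, with 3 without male vehicle 2, male vehicle 3 or male dexamethasone 2. In females the number was 4, and it was 9 with the replicate block and 11 without slide 5, while the share of all genes called went from 24.4% to 31.8% and 29.8%. Leaving out single arrays gave 2 to 5, with 2 without female vehicle 1 or female dexamethasone 2. Between the sexes after dexamethasone the number was 0, and it was 2 with slide as a fixed block, 1 as a random block and 1 with the replicate block. Same-numbered arrays did not deviate together by number throughout (correlations from -0.00 for numbers 1 and 2 to 0.59 for number 3, which is slide 5), so the numbers were not taken as pairs. The median over the 39 genes of the female minus the male effect was 0.27, and it was 0.83 with slide as a fixed block and 0.95 within slide 5, but -0.11 without slide 5, 0.00313 with the normexp background correction and -0.17 to 0.53 with single arrays left out, lowest without male dexamethasone 3. Between the sexes after dexamethasone the median was 0.41, and it was 1.03 and 1.29 with slide as a fixed block and within slide 5, but 0.0609 without slide 5, 0.0801 with normexp and 0.0153 to 0.72 with single arrays left out, again lowest without male dexamethasone 3.

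Some uncalled differences changed sign. In males Mki67 became -0.084 with slide as a fixed block and -0.65 within slide 5, and Top2a -0.44 within slide 5. Single arrays left out gave -0.19 to 1.36 for Ccnb1, -0.14 to 1.35 for Cdk1 and -0.59 to 1.01 for Top2a in males, each lowest without male vehicle 3. In females Fen1 became -0.0384 with quantile normalization, -0.17 with slide as a fixed block, -0.0707 as a random block, -0.50 within slide 5 and -0.0255 in the authors' value table, and -0.12 to 0.35 with single arrays left out. Rfc4 became -0.0201 with the normexp background correction, -0.24 without slide 5, and -0.14 to 0.46 with single arrays left out. Mcm2 became 0.0468 with slide as a fixed block and 0.18 within slide 5. Scaling to the array median moved the median of all genes in females from -0.08 to 0.13 and that of the 39 genes from 0.33 to 0.54. The cause was not tested for any of these changes.

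Dim probes, such as those of Prc1, Cdc6 and Gins2, give bounds or levels near background, and 3 pools a group leave wide intervals.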
